A study of Mus musculus with 28 samples.

Results

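The genes described here carry glucose into the cell and oxidise it: glucose and lactate transporters, the enzymes of glycolysis, the enzymes that decide between lactate and mitochondrial pyruvate oxidation, the tricarboxylic acid (TCA) cycle, the pentose phosphate pathway and gluconeogenesis. They were chosen as a named list of 44 genes, of the 16593 gene symbols on the array, with earlier results of these data known. Of the 44, 39 had a probe under their symbol and 35 were tested. Gpi1, Eno1, Ldhb, G6pdx and Pgd had no probe under that symbol. Slc16a1, Pgk1, Pck1 and Fbp1 had a probe that was not detected on all arrays of any group and were left out of the tests. Where a gene had several probes, the probe with the highest mean was used.

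The study followed mouse endoderm, the germ layer that lines the gut tube, from E8.25 (embryonic day) to the organs it forms at E11.5. Its 28 Illumina MouseRef-8 v2 arrays fell into 9 groups: endoderm (labelled definitive endoderm), ectoderm and mesoderm of E8.25 embryos with 4 to 6 somites, and, at E11.5, liver, pancreas, intestine, lung, stomach and esophagus. Each group had 3 arrays, except pancreas with 4. Organ samples held flow-sorted endoderm from 10 to 12 pooled embryos, so the error is that between pools. The sources used here give no strain, no sorting marker, and no isolation procedure for ectoderm and mesoderm.

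Glucose enters cells through facilitative transporters of the Slc2a (GLUT) family and is phosphorylated by hexokinase. Glycolysis then yields pyruvate, which lactate dehydrogenase reduces to lactate or the pyruvate dehydrogenase complex feeds into the mitochondrial TCA cycle. In early post-implantation mouse embryos, glycolysis with lactate production is known to be high, and many glycolytic genes are known targets of hypoxia-inducible factors, which bind the core letters ACGTG or GCGTG.

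The levels below are log2 intensities after background correction and quantile normalization, and a difference of 1 is 2-fold. A gene was called where limma's adjusted p (Benjamini-Hochberg over the 9651 genes tested) was under 0.05 and the change was at least 2-fold. A probe was taken as detected on an array where it exceeded the 99th percentile of the sensory receptor probes there. Intensities of different probes are not compared with each other. Because RNA came from many cells at once, fewer cells of a type and less RNA per cell cannot be told apart.

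The arrays differed in ways that touch these genes. Pancreas 3 and intestine 3 held 11861 and 7931 deposited values below 0, and 7083 and 9664 of their probes were detected, against 10843 to 12862 on the other 26 arrays. Liver 3 held 1631 deposited values below 0. On 8 arrays (all of liver and mesoderm, with stomach 1 and lung 1) no deposited intensity exceeded 20000. This lower intensity class can be told apart from the mesoderm and liver groups only through stomach 1 and lung 1. Organ markers were detected as labelled on every array of the group for 7 of 7 esophagus, 8 of 8 lung, 5 of 8 stomach, 11 of 13 liver, 8 of 12 pancreas and 4 of 10 intestine markers. Gkn2 and Tff2 were absent from stomach, Fgb from liver, Onecut1 from pancreas, and Hoxa10, Cdh17 and Hnf4g from intestine. Detection was not particular to the organ: every E8.25 endoderm array detected 6 of 10 intestine and 7 of 13 liver markers. The mean intensity of each list was highest in its own organ, except for stomach. The stomach list read 10.21 to 10.31 on the log2 scale in esophagus and 9.44 to 9.67 in stomach.

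From E8.25 endoderm to the mean of the 6 organs, the glucose transporters Slc2a1 and Slc2a3, the glycolytic enzymes Aldoa and Eno3, the lactate dehydrogenase Ldha and the pyruvate dehydrogenase subunit Pdha1 fell, and the isocitrate dehydrogenase Idh1 rose. Of the 35 tested genes, 7 were called (20.0%), where 6.89% of all genes tested were. Of these, 6 were lower, against 3.47% of all genes, and 1 was higher, against 3.42%. Since the list was chosen with earlier results of these data known, the shares describe it and are no test of it. The median change of the 35 was -0.29 on the log2 scale, beside -0.02 for all genes tested. By role, 2 of 4 transporters, 2 of 14 glycolytic genes and 2 of 5 genes of lactate and pyruvate fate were called lower. Of the 10 genes listed under the TCA cycle 1 was called higher, Idh1, whose cytosolic enzyme acts outside the cycle. Neither of the 2 pentose phosphate genes was called. By adjusted p alone, without the 2-fold requirement, 18 of the 35 were lower (51.4%), where 25.4% of all genes tested were, and 5 were higher (14.3%), against 20%. Slc2a2 was then among the higher and Slc16a3 among the lower genes.

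**Figure D1:**
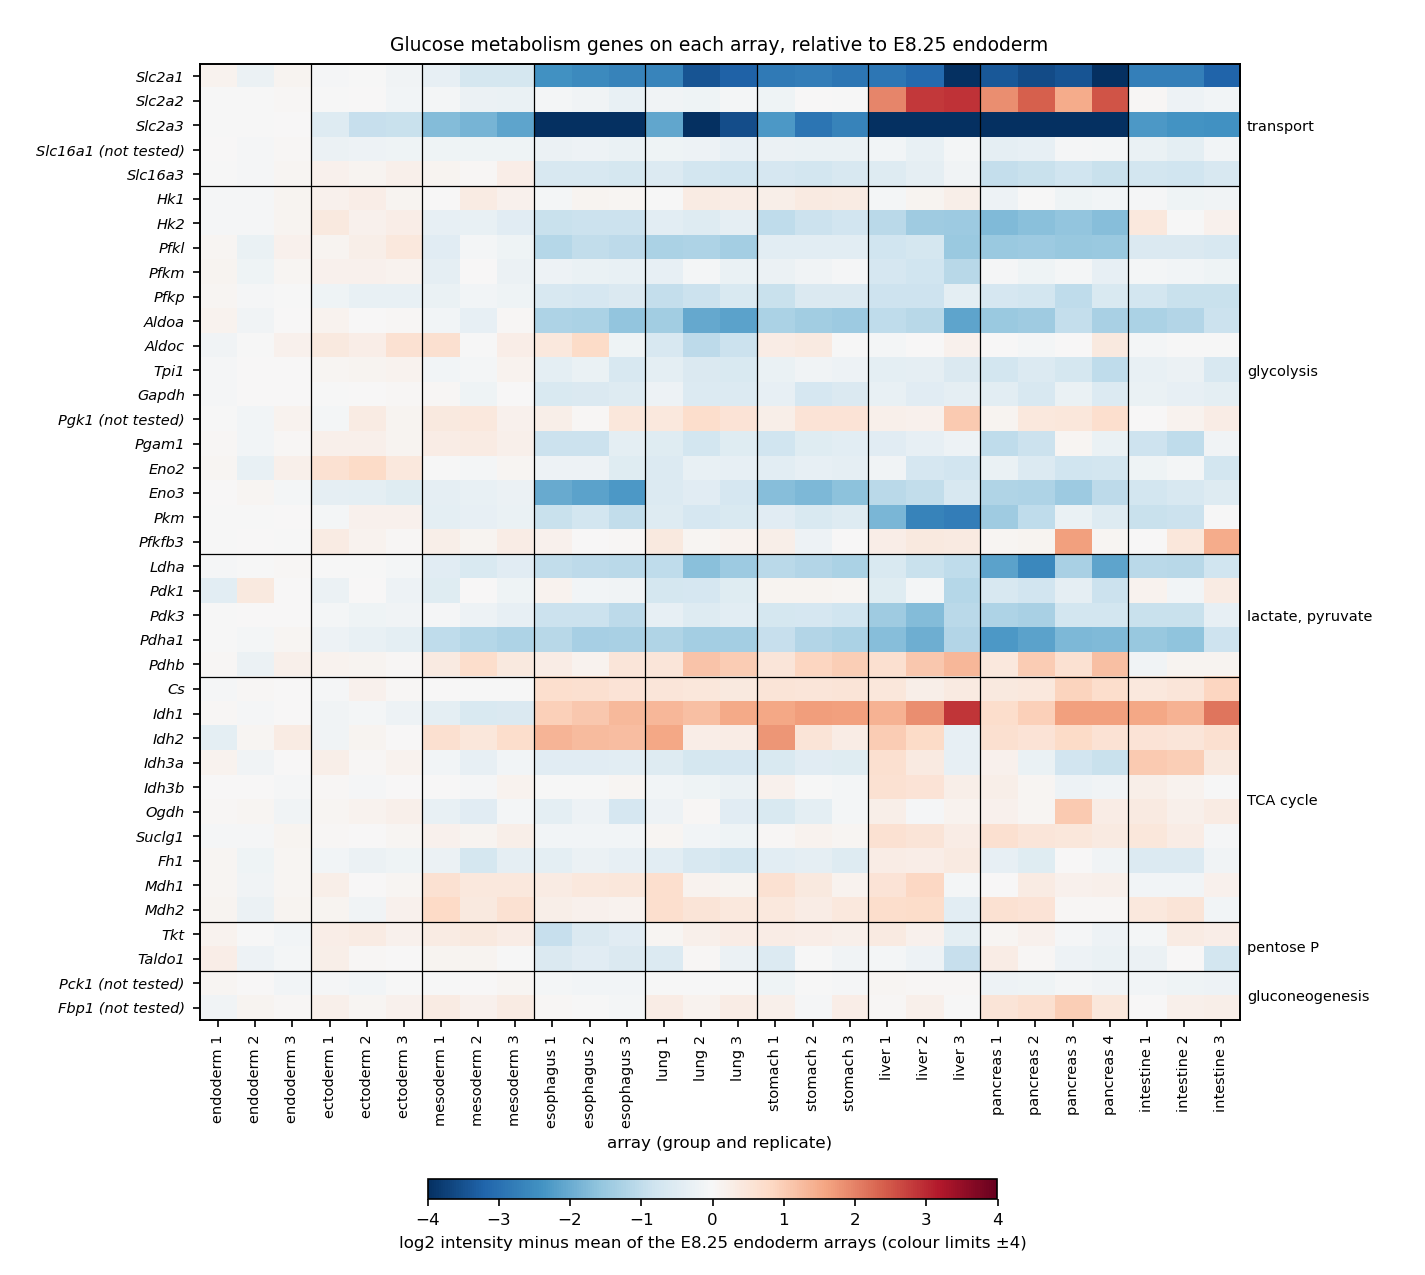
Each cell is one gene (rows, grouped by role) on one array (columns, grouped by sample), coloured by its log2 intensity minus the mean of the 3 E8.25 endoderm arrays, with colours limited at 4 in either direction. The rows of Slc2a1 and Slc2a3 are blue in all 19 organ arrays, and the row of Slc2a2 is red in liver and pancreas.

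**Figure D2:**
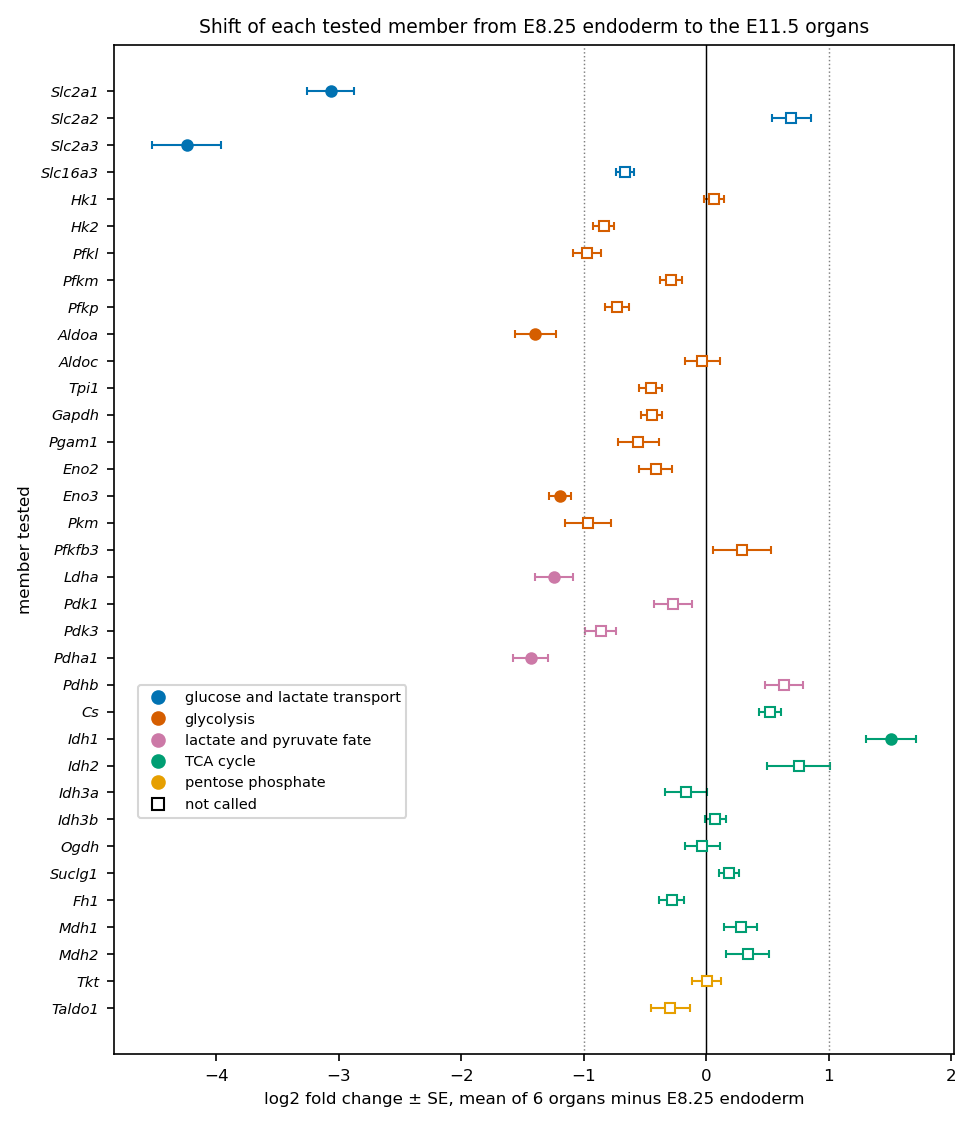
Change of each of the 35 tested genes from E8.25 endoderm to the mean of the 6 organs, as log2 fold change with its standard error (horizontal axis), coloured by role. Filled circles are called genes and open squares are not, and dotted lines mark 2-fold. The 2 transporters Slc2a1 and Slc2a3 lie farthest to the left, at -3.07 and -4.24.

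The sequences just before the transcription start are shown for genes that fell, because these are the stretches in which the hypoxia letters were searched. They are the 250 bases before a RefSeq start in mouse GRCm38.p6, written on the gene's strand, with matches to ACGTG or GCGTG on either strand in capitals.
Slc2a1, chr4:119108495-119108744, plus strand: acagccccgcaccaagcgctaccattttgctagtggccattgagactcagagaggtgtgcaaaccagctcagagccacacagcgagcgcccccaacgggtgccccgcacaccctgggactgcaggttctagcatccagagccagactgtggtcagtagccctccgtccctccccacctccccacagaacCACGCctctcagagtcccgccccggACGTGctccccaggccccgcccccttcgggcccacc
Aldoa, chr7:126799255-126799504, minus strand: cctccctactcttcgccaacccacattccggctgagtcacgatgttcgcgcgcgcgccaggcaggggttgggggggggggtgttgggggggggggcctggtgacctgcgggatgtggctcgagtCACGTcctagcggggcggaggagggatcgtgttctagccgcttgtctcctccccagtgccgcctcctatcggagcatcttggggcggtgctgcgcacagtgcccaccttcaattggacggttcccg
Ldha, chr7:46845554-46845803, plus strand: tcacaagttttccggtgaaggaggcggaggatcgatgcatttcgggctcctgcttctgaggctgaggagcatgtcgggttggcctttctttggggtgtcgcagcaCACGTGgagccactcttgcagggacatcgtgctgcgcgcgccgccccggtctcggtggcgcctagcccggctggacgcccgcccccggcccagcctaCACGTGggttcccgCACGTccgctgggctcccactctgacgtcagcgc
Pdha1, chrX:160138431-160138680, minus strand: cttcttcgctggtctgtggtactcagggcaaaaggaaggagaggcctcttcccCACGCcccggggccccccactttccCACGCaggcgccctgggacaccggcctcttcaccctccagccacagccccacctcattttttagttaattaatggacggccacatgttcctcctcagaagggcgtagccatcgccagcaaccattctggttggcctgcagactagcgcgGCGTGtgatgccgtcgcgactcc
In Ldha the letters CACGTG read the same on both strands, so each such stretch holds a match on either strand. The Aldoa window is 1 of 3 of that gene and the Ldha window 1 of 2.

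At least 1 match lay before a start of 34 of the 42 listed genes with a window (81.0%), and in 41.5% of all 27025 genes with a window. All 5 of the genes called lower that have a window held a match (the 4 shown and Eno3). So did 29 of the 37 other listed genes with a window (78.4%), among them Idh1, which rose. These 37 include the listed genes that had no probe or were left out of the tests, whose change is not known. Slc2a3 is not among the windows used. Counted by window, 75.8% of 62 windows of the listed genes held a match, against 38.6% of 32851. Base composition was not matched between these promoters, and a match describes letters, not a bound site. The window of Slc2a2, the transporter that was higher in liver and pancreas, is shown as 1 of those without a match.
Slc2a2, chr3:28697653-28697902, plus strand: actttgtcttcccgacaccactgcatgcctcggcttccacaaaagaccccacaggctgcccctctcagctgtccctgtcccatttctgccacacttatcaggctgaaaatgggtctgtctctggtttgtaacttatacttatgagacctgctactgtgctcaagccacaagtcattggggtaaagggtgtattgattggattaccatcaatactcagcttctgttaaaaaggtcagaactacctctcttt

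Slc2a1 encodes GLUT1, the widespread basal glucose transporter. Its log2 intensity was 13.83, 13.47 and 13.80 in E8.25 endoderm, 13.65, 13.69 and 13.56 in ectoderm, and 13.38, 12.98 and 12.98 in mesoderm. In the organs it was 10.98, 10.96 and 10.49 in intestine, 11.05, 10.26 and 10.46 in lung, 10.32, 10.12, 10.24 and 9.60 in pancreas, 10.81, 10.60 and 9.47 in liver, 11.29, 11.16 and 11.03 in esophagus, and 10.86, 10.93 and 10.82 in stomach. Every organ array lay below every E8.25 array. The mean of the organs was 8.39-fold lower than endoderm, a log2 change of -3.07 ± 0.19 (SE; limma adjusted p = 8.75e-12). The fall ranged from -2.54 ± 0.25 in esophagus (limma adjusted p = 2.55e-08) to -3.63 ± 0.24 in pancreas (limma adjusted p = 1.18e-11). The organs differed among themselves by 1.09 from esophagus to pancreas (limma F-test, adjusted p = 0.00363), a call lost with the replicate number as a block, at 0.93, and without pancreas 4, at 0.93.

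Slc2a3 encodes GLUT3, a high-affinity transporter known from neurons and the early embryo. Endoderm arrays read 13.87, 13.89 and 13.92, ectoderm 13.38, 12.97 and 13.00, and mesoderm 12.15, 12.03 and 11.79. Organ arrays read 11.60, 11.51 and 11.46 in intestine, 11.83, 9.88 and 10.34 in lung, 7.84, 6.87, 8.61 and 7.39 in pancreas, 9.56, 9.28 and 8.83 in liver, 7.88, 7.39 and 7.36 in esophagus, and 11.60, 10.97 and 11.22 in stomach. The organs split widely, with esophagus and pancreas low and intestine, stomach and lung high, and none reached an endoderm or ectoderm array. Against endoderm the mean of the organs changed by -4.24 ± 0.28 (limma adjusted p = 2.21e-11), an 18.9-fold fall. The fall was 81.7-fold in esophagus (log2 -6.35 ± 0.37, limma adjusted p = 2.06e-12) and 74.4-fold in pancreas (log2 -6.22 ± 0.35, limma adjusted p = 6.57e-13), and 5.17-fold in intestine (log2 -2.37 ± 0.37, limma adjusted p = 2.15e-05). The spread of 3.98 between intestine and esophagus was the widest of the 35 genes (limma F-test, adjusted p = 1.96e-10). Esophagus and pancreas overlapped each other, and liver stood above pancreas by 1.54 ± 0.35 (limma adjusted p = 0.000796).

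Slc2a2 encodes GLUT2, the low-affinity transporter of hepatocytes, beta cells and absorptive epithelia. In liver it read 7.99, 8.88 and 8.92 and in pancreas 7.90, 8.45, 7.53 and 8.55. On the other 21 arrays it was not detected, including all intestine arrays at 6.09, 5.83 and 5.94 and endoderm at 6.01, 6.04 and 6.08. Liver and pancreas arrays overlapped each other and lay above all others. With a dim side not well above background the fold is a bound: at least 4.83-fold in liver (limma adjusted p = 3.65e-10) and at least 3.45-fold in pancreas (limma adjusted p = 7.15e-09) over endoderm. The fitted log2 difference moved with the background handling, from 2.55 to 3.92 in liver and from 2.07 to 3.35 in pancreas, and with all probes of the gene averaged it was 1.86 and 1.33, called each time. The other 2 probes of the gene followed the same arrays (Pearson r over the 28 arrays 0.94 and 0.95, as a description).

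The lactate transporters gave little. Slc16a3 (MCT4) was detected on every E8.25 array, at 6.75 to 7.04, and on no esophagus, lung, stomach, pancreas or intestine array. Its change in the mean of the organs was under 2-fold, at least 1.28-fold (limma adjusted p = 7.84e-08). Its other 2 probes were detected on 0 and 3 of the 28 arrays, so their r of 0.04 and -0.01 with it decides nothing. Slc16a1 (MCT1) stayed between 5.84 and 6.26 on all 28 arrays, undetected on each.

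**Figure D3:**
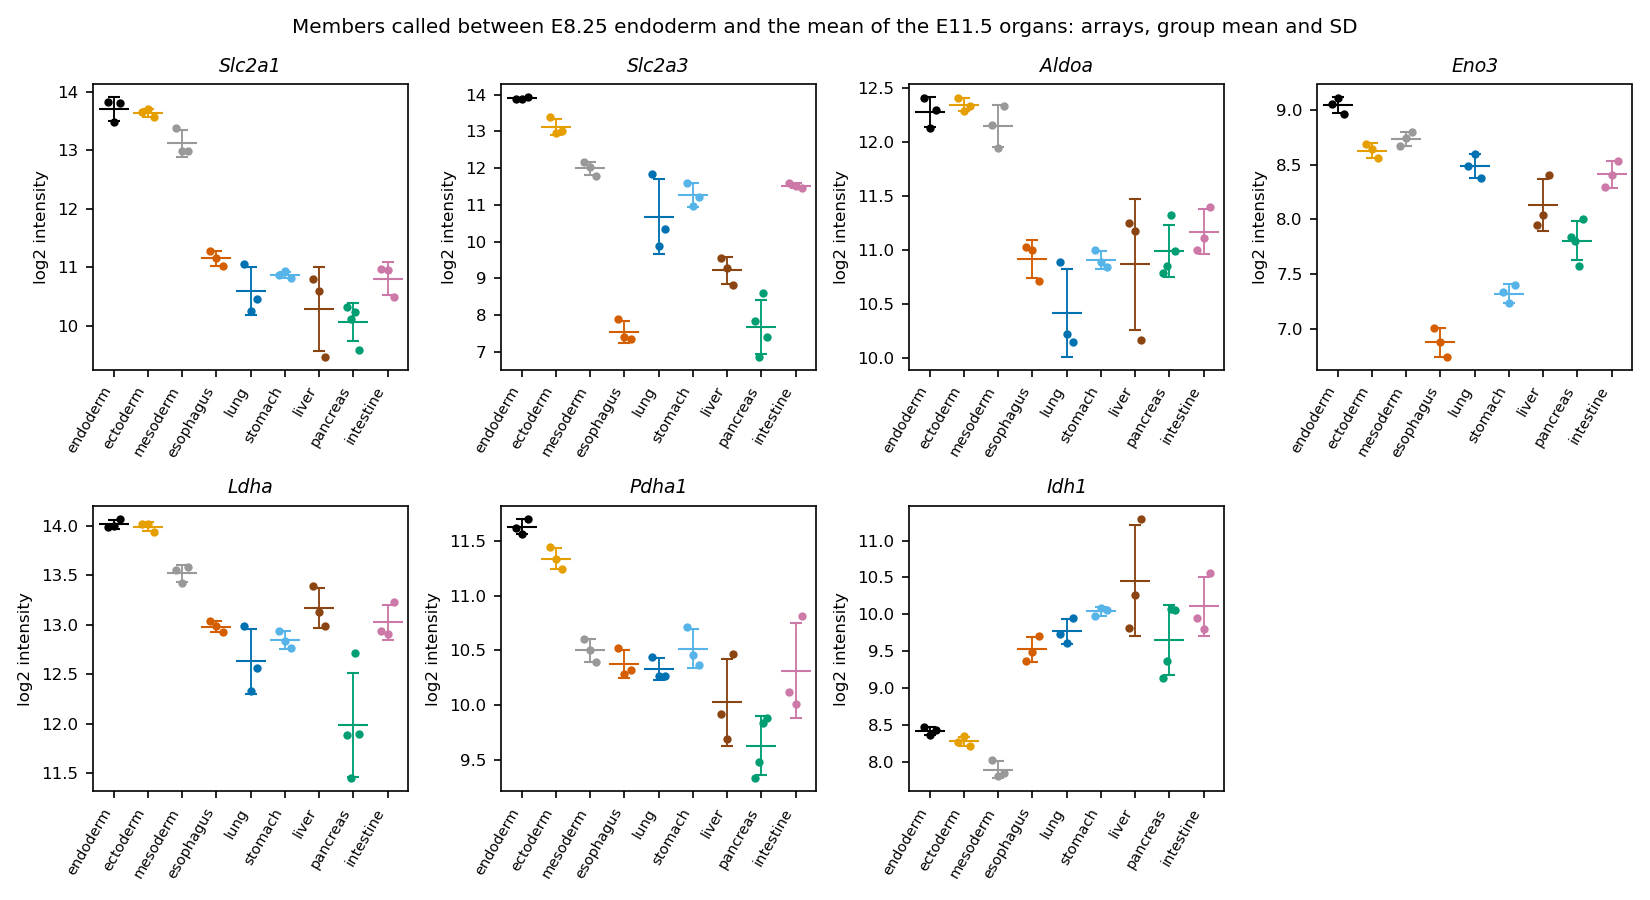
Log2 intensity (vertical axis, own scale per gene) of the 7 genes called between E8.25 endoderm and the mean of the organs, in all 9 groups. Points are arrays, and bars the group mean and SD (n = 3, pancreas 4). The endoderm points lie apart from the points of all 6 organs in each panel.

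In the preparatory steps of glycolysis, Aldoa, the aldolase that splits fructose 1,6-bisphosphate, fell in every organ. It read 12.41, 12.14 and 12.30 in endoderm, 12.41, 12.29 and 12.34 in ectoderm, and 12.16, 11.95 and 12.33 in mesoderm. In the organs it read 10.999, 11.11 and 11.41 in intestine, 10.89, 10.23 and 10.15 in lung, 10.79, 10.86, 11.33 and 10.998 in pancreas, 11.26, 11.18 and 10.17 in liver, 11.03, 11.01 and 10.72 in esophagus, and 11.004, 10.90 and 10.84 in stomach. The 3 germ layers overlapped, and all organ arrays were below them. The mean change from endoderm was -1.40 ± 0.17 (limma adjusted p = 3.78e-07), from -1.11 ± 0.22 in intestine (limma adjusted p = 0.000361) to -1.86 ± 0.22 in lung (limma adjusted p = 5.44e-07).

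Hk2, the inducible hexokinase that traps glucose in the cell, did not follow one course. It read 11.87, 11.85 and 12.02 in endoderm, 12.33, 11.90 and 12.08 in intestine, 10.83, 10.48 and 10.46 in liver, and 10.14, 10.24, 10.34 and 10.20 in pancreas. Esophagus (11.02 to 11.07), lung (11.39 to 11.56) and stomach (10.90 to 11.14) lay between liver and endoderm. Intestine arrays overlapped endoderm, while every array of the other 5 organs was lower. Hk2 was called lower in liver (-1.33 ± 0.11, limma adjusted p = 7.85e-10) and pancreas (-1.69 ± 0.11, limma adjusted p = 5.43e-12). The spread between intestine and pancreas was 1.88 (limma F-test, adjusted p = 3.74e-12). Hk1, the constitutive hexokinase, was near its detection limit, between 5.98 and 6.54 on all arrays.

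Pfkl, the liver-type subunit of phosphofructokinase, a committing step of glycolysis, read 12.08, 11.73 and 12.15 in endoderm. It read 11.41, 11.42 and 11.34 in intestine, 10.72, 10.74 and 10.64 in lung, 10.51, 10.55, 10.48 and 10.51 in pancreas, 11.19, 11.28 and 10.51 in liver, 10.85, 10.99 and 10.95 in esophagus, and 11.57, 11.56 and 11.56 in stomach. All organ arrays were below endoderm, with stomach and intestine nearest to it. It was called in esophagus (-1.06 ± 0.15, limma adjusted p = 3.48e-06), lung (-1.29 ± 0.15, limma adjusted p = 2.94e-07) and pancreas (-1.48 ± 0.14, limma adjusted p = 6.06e-09). These calls rest on the brighter probe: a second, dimmer probe shifted by 0.09 between organs and endoderm, and with both averaged no Pfkl call remained. The esophagus call was also lost without endoderm 3, at -0.98. The muscle-type Pfkm and platelet-type Pfkp changed by -0.29 ± 0.09 (limma adjusted p = 0.00978) and by -0.73 ± 0.10 (limma adjusted p = 1.51e-06), under 2-fold. For Pfkp, which was not detected in lung and intestine, the bound was at least 1.54-fold.

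In the steps from triose phosphate to pyruvate, Eno3, the enolase named for muscle, fell in the mean of the organs. It read 9.05, 9.10 and 8.96 in endoderm, 8.69, 8.64 and 8.56 in ectoderm, and 8.67, 8.74 and 8.79 in mesoderm. It read 8.29, 8.41 and 8.54 in intestine, 8.48, 8.60 and 8.38 in lung, 7.84, 7.81, 7.58 and 8.01 in pancreas, 7.95, 8.04 and 8.40 in liver, 7.01, 6.88 and 6.75 in esophagus, and 7.34, 7.24 and 7.40 in stomach. Esophagus and stomach were low. Lung and intestine were the highest organs, with means of 8.49 and 8.41 against 8.63 in ectoderm. The mean change was -1.20 ± 0.09 (limma adjusted p = 1.7e-10), with -2.16 ± 0.12 in esophagus (limma adjusted p = 5.9e-13), -1.71 ± 0.12 in stomach (limma adjusted p = 5.65e-11) and -1.23 ± 0.11 in pancreas (limma adjusted p = 2.64e-09). The organs differed by 1.60 from lung to esophagus (limma F-test, adjusted p = 3.83e-11).

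Pkm, the pyruvate kinase of most embryonic and adult tissues other than liver, read 13.29, 13.29 and 13.31 in endoderm and 11.47, 10.63 and 10.54 in liver. In pancreas it read 11.89, 12.30, 13.04 and 12.78, and the other 4 organs spanned 12.32 to 13.28. The 3 liver arrays lay below every other array. Liver fell by 5.34-fold from endoderm (log2 -2.42 ± 0.24, limma adjusted p = 1.25e-08) and was -1.74 ± 0.19 against the mean of the other 5 organs (limma adjusted p = 3e-08).

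The remaining glycolytic genes changed by under 2-fold in each organ. Gapdh, bright on every array, read 14.25, 14.32 and 14.29 in endoderm and 13.61 to 14.10 in the organs, a change of -0.45 ± 0.08 (limma adjusted p = 0.00015). The organ arrays of this common reference gene all lay below the endoderm arrays. Tpi1 changed by -0.45 ± 0.09 (limma adjusted p = 0.000335), with a second probe at -0.41 and a dimmer probe at 0.72 the other way. Pgam1 changed by -0.56 ± 0.17 (limma adjusted p = 0.00897) and Eno2, the neuronal enolase, by -0.41 ± 0.13 (limma adjusted p = 0.0149). Aldoc, the brain aldolase, had no mean shift (-0.03) but differed among organs by 1.18 (limma F-test, adjusted p = 0.000117), at 6.89, 6.46 and 6.66 in lung and 7.93, 8.28 and 7.35 in esophagus. Pfkfb3, which makes the phosphofructokinase activator fructose 2,6-bisphosphate, stood at 7.73 on pancreas 3 and 7.59 on intestine 3, and at 5.89 to 6.57 on the other 26 arrays.

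Ldha, the lactate dehydrogenase subunit that favours lactate, read 13.99, 13.999 and 14.07 in endoderm, 14.02, 14.02 and 13.94 in ectoderm, and 13.56, 13.42 and 13.58 in mesoderm. Organs read 12.94, 12.91 and 13.23 in intestine, 12.99, 12.34 and 12.57 in lung, 11.88, 11.45, 12.72 and 11.90 in pancreas, 13.40, 13.13 and 12.99 in liver, 13.04, 12.98 and 12.93 in esophagus, and 12.94, 12.84 and 12.76 in stomach. Pancreas was low on 3 of its 4 arrays, with pancreas 3 inside the range of lung, and all organ arrays were below endoderm. The mean change was -1.24 ± 0.15 (limma adjusted p = 5.79e-07), and pancreas fell 4.08-fold (log2 -2.03 ± 0.19, limma adjusted p = 5.61e-09). In liver (-0.85) and intestine the change stayed under 2-fold, narrowly so in intestine, with means of 13.03 there and 14.02 in endoderm. In esophagus the change was -1.04, no longer called without esophagus 3 at -1.0.

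Pdha1, the X-linked catalytic subunit of pyruvate dehydrogenase, fell in the organs as well. It read 11.62, 11.57 and 11.70 in endoderm, 11.44, 11.33 and 11.25 in ectoderm, and 10.61, 10.50 and 10.40 in mesoderm. It read 10.12, 10.01 and 10.81 in intestine, 10.44, 10.27 and 10.26 in lung, 9.33, 9.47, 9.83 and 9.88 in pancreas, 9.91, 9.69 and 10.47 in liver, 10.53, 10.29 and 10.32 in esophagus, and 10.71, 10.46 and 10.37 in stomach. The organ arrays overlapped mesoderm but not endoderm or ectoderm. The mean change was -1.43 ± 0.14 (limma adjusted p = 2.62e-08), with -2.003 ± 0.18 in pancreas (limma adjusted p = 2.35e-09). Its partner subunit Pdhb moved the other way, by 0.64 ± 0.15 (limma adjusted p = 0.00172), and was called higher in liver, at 1.01 ± 0.20 (limma adjusted p = 0.000189), a call lost without endoderm 2, liver 2 or liver 3 (0.85 as the smallest change), and with scaling to the 75th percentile or with both of its probes averaged (0.93 each).

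Among the kinases that switch pyruvate dehydrogenase off, Pdk3 read 9.17, 9.19 and 9.20 in endoderm, 7.76, 7.47 and 8.12 in liver, and 7.96, 7.89, 8.44 and 8.44 in pancreas. All organ arrays, up to 8.85, were below endoderm. Pdk3 was called lower in liver (-1.40 ± 0.16, limma adjusted p = 1.29e-07) and pancreas (-1.01 ± 0.15, limma adjusted p = 1.04e-05), the latter lost when endoderm 2, endoderm 3, pancreas 1 or pancreas 2 was left out, with -0.91 as the smallest change. Pdk1, a known hypoxia target, changed by -0.27 in the mean and was not called.

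In the TCA cycle group the direction was mixed, with a median of 0.23. Idh1, the cytosolic NADP-dependent isocitrate dehydrogenase, which supplies NADPH outside the cycle, rose in every organ. It read 8.47, 8.36 and 8.43 in endoderm, 8.27, 8.34 and 8.21 in ectoderm, and 8.02, 7.81 and 7.85 in mesoderm. It read 9.96, 9.81 and 10.56 in intestine, 9.74, 9.62 and 9.95 in lung, 9.13, 9.37, 10.07 and 10.05 in pancreas, 9.81, 10.27 and 11.29 in liver, 9.37, 9.49 and 9.71 in esophagus, and 9.97, 10.09 and 10.06 in stomach. All 19 organ arrays lay above all 9 germ layer arrays, and liver 3 was highest. The mean change was 1.51 ± 0.20 (limma adjusted p = 2.1e-06), from 1.11 ± 0.27 in esophagus (limma adjusted p = 0.00187) to 2.04 ± 0.27 in liver (limma adjusted p = 7.78e-07). With 1 array left out the liver change was as low as 1.62, beside 1.62 in stomach and 1.69 in intestine with all arrays.

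Idh2, the mitochondrial NADP-dependent enzyme, was called higher in esophagus, at 12.08, 11.97 and 11.95 against 10.31, 10.79 and 11.03 in endoderm (1.29 ± 0.34, limma adjusted p = 0.00358). The organs were not called as differing from each other (limma F-test, adjusted p = 0.263). Lung 1 and stomach 1, of the lower intensity class, stood at 12.26 and 12.47 against 10.97 to 11.23 on the other lung and stomach arrays. Idh3a, a catalytic subunit of the NAD-dependent enzyme of the cycle, differed among the organs by 1.43 (limma F-test, adjusted p = 2.27e-05), with 9.86, 9.81 and 9.21 in intestine and 8.30, 8.14 and 8.15 in lung. Citrate synthase (Cs) rose in every organ without reaching 2-fold, from 9.78 to 9.89 in endoderm to 10.06 to 10.74 in the organs (0.52 ± 0.09, limma adjusted p = 5.98e-05). Suclg1 changed by 0.19 by its brightest probe, while another probe, detected on all 28 arrays, shifted by 1.88, so the size of its change depends on the probe. Ogdh, Idh3b, Fh1, Mdh1 and Mdh2 were not called in any organ.

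In the pentose phosphate pathway Tkt and Taldo1 changed by 0.00 and -0.30 in the mean of the organs, not called in any organ. For gluconeogenesis, Pck1 stayed undetected on all 28 arrays, at 5.84 to 6.13. Fbp1 was detected on 3 of 4 pancreas arrays, at 6.68, 6.80 and 6.63, while pancreas 3 read 7.15, under its own detection threshold of 7.48. It was also detected on 2 arrays each of lung, stomach and mesoderm and on 1 each of liver and ectoderm, and on none of endoderm, esophagus or intestine.

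Each organ was also set against endoderm on its own; the 6 comparisons share the endoderm arrays, so their counts are not independent. In esophagus 2 genes were called higher and 7 lower (25.7% of 35); of all genes tested 6.07% were higher, 5.08% lower and 11.1% either. Lung had 1 higher and 6 lower (20.0%), against 4% and 4.22% of all genes, 8.22% together. The same numbers of 1 and 6 were found in stomach, against 4.88% and 4.34%, 9.22% together. Liver had 3 higher and 7 lower (28.6%), against 9.16% and 9.4%, 18.6% together. In pancreas 2 were higher and 9 lower (31.4%), against 5.46% and 5.08%, 10.5% together. Intestine had 1 higher and 4 lower (14.3%), against 4.88% and 3.64%, 8.52% together. The median change ran from -0.44 in pancreas to -0.12 in intestine, beside all-gene medians between -0.10 and -0.02. Slc2a1, Slc2a3, Aldoa, Pdha1 and Idh1 were called in all 6.

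**Figure D4:**
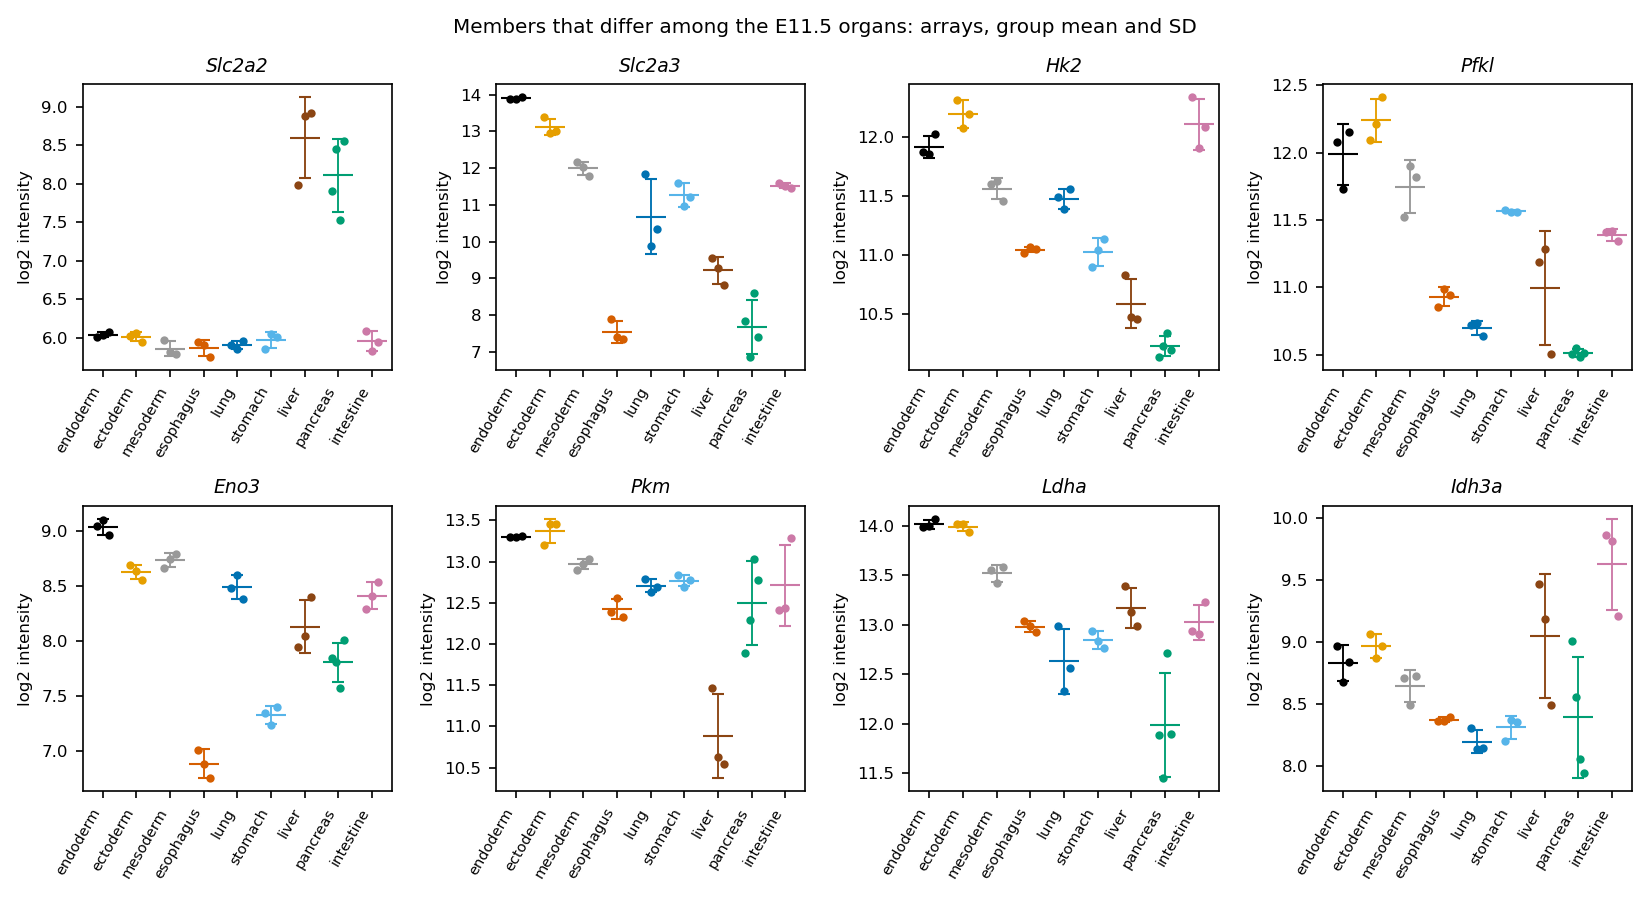
Log2 intensity (vertical axis, own scale per gene) of genes called as different among the 6 organs, in all 9 groups, with arrays as points and group mean and SD as bars (n = 3, pancreas 4). Slc2a2 is raised in liver and pancreas, Pkm is lowest in liver and Hk2 is highest in intestine among the organs.

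Among the 6 organs, 10 of 35 genes differed (28.6%), close to the 30.6% of all genes tested, so the share itself is not particular to them. Of the 10, 3 were transporters, 5 glycolytic, 1 of lactate and pyruvate fate and 1 of the TCA cycle. Against the mean of the other 5 organs, liver had 1 gene called higher, Slc2a2 (at least 3.63-fold, limma adjusted p = 2.79e-11), and 1 called lower, Pkm, or 5.71% against 13.5% of all genes (6.65% higher and 6.81% lower).

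Other genes of the same pathways were listed apart from the 44. Of 22 other pyruvate and TCA cycle genes tested, 8 were called higher and 1 lower in liver against endoderm (40.9%, where 18.6% of all genes were called), with a median of 0.78 beside -0.10 for all genes. Glud1, the glutamate dehydrogenase that feeds the cycle, rose by 3.21 ± 0.41 (limma adjusted p = 4.9e-07), Sdhd, a succinate dehydrogenase anchor, by 2.18 ± 0.44 (limma adjusted p = 0.000194), and Got2, an aspartate aminotransferase, by 1.22 ± 0.11 (limma adjusted p = 1.02e-09). Me2, a mitochondrial malic enzyme, changed by -1.56 ± 0.28 (limma adjusted p = 6.08e-05). The counts of this list in the other organs are not given here, so nothing particular to liver is read from it. All liver arrays are of the lower intensity class. Of 24 other glucose metabolism genes tested, 4 were called higher in liver (Pgm1 at 1.95 ± 0.33, Gys2 at 1.43 ± 0.24, Khk at 1.41 ± 0.14 and H6pd) and 1, the glycerol phosphate dehydrogenase Gpd2, lower at -1.81 ± 0.13 (limma adjusted p from 3.47e-11 to 0.00012). That share of 20.8% is near the 18.6% of all genes. In intestine 3 were called higher and 2 lower, also 20.8%, against 8.52% of all genes: Fbp2, a fructose bisphosphatase (1.54 ± 0.13, limma adjusted p = 2.6e-09), and Pfkfb2 were among the 3 that rose, and Pygl and Gpd2 fell. Stomach had 2 higher (Fbp2 and Rpia) and 2 lower (Pygl and Gpd2), or 16.7% against 9.22%. Esophagus, lung and pancreas had 1 called gene of the 24 each, where 11.1%, 8.22% and 10.5% of all genes were called. In the mean of the organs 2 of the 24 were called (8.33%, against 6.89% of all genes), both lower: the glycogen phosphorylase Pygl (-1.25 ± 0.16, limma adjusted p = 7.14e-07) and Gpd2 (-1.07 ± 0.10, limma adjusted p = 6.41e-09).

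Of 23 hypoxia response genes outside glycolysis, 1 was called lower in the mean of the organs (the oxygen sensor Egln3, -1.36 ± 0.15, limma adjusted p = 1.73e-07) and 1 higher (the repressor Bhlhe40, 1.49 ± 0.17, limma adjusted p = 2.19e-07). That share of 8.70% is close to the 6.89% of all genes tested, and their median change was -0.10. In liver 2 were higher and 5 lower (30.4%, against 18.6% of all genes), among them Ndrg1 at 2.62 ± 0.24 (limma adjusted p = 2.29e-09) and Ddit4 at -1.79 ± 0.22 (limma adjusted p = 2.79e-07). In esophagus 5 were higher and 0 lower (21.7%, against 11.1% of all genes). Bhlhe40 rose by 2.25 ± 0.23 (limma adjusted p = 2.64e-08), and Mxi1, Ppp1r3c and Ddit4 had the next largest changes. Ddit4, an mTOR inhibitor induced by stress, was thus lower in liver and higher in esophagus (1.38 ± 0.22, limma adjusted p = 2.01e-05).

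Markers of other cell types moved with some organs. In liver, 7 of 11 leukocyte markers were detected on all arrays against 1 in endoderm, and the mean intensity of that list was 8.71 to 8.95 on the log2 scale against 6.17 to 6.33, with Ptprc, Fcer1g and Itgb2 never detected. Erythroid markers read 7.79 to 9.87 in liver and 9.10 to 10.2 in intestine against 6.03 to 6.08 in endoderm. In liver 8 of 14 were detected on all arrays and in intestine 5, with Gata1 and Epb42 in neither organ. Intestine also never detected Hbb-b2, Epor, Tal1, Ermap and Rhag, so 7 of the 14 were absent there. The erythroid list read 6.5 to 7.1 in esophagus, 6.8 to 7.6 in lung and in stomach, and 6.7 to 7.1 in pancreas. In these 4 organs 3 to 4 erythroid markers were detected on all arrays, against 0 in endoderm. Epithelial markers were lower in liver (9.34 to 9.47 against 10.7 to 10.9), with Krt19, Grhl2 and Spint1 never detected. Spint2 was detected neither in liver nor in endoderm, and Sox17 in none of the 6 organs. Mesenchyme markers were higher in esophagus (9.23 to 9.46 against 7.27 to 7.36), 10 of 15 detected on all arrays and Col1a2, Tagln, Tbx18 and Postn on none. Their part in the values of the glucose metabolism genes was not tested.

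Between the E8.25 germ layers the shares called were near those of all genes, and nothing is read from them about these genes. Between endoderm and ectoderm 0 of the 35 were called, by limma, with 6 at an unadjusted p under 0.05, where 2.83% of all genes were called (1.93% higher in endoderm and 0.901% lower). By adjusted p alone, Eno2 was lower in endoderm (-0.60 ± 0.18, limma adjusted p = 0.0295) and Eno3 higher (0.41 ± 0.12, limma adjusted p = 0.0216). Against mesoderm 2 genes were called, both higher in endoderm (5.71%, against 8.63% of all genes, 3.68% higher and 4.95% lower): Slc2a3 by 1.90 ± 0.37 (limma adjusted p = 0.000336) and Pdha1 by 1.13 ± 0.19 (limma adjusted p = 6.41e-05). The mesoderm arrays are all of the lower intensity class.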

How the data were processed

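Per the labels' protocols, Trizol-extracted total RNA was amplified by the TotalPrep kit and hybridised to bead arrays, 1 for each sample. The values used are deposited probe intensities on a linear scale, 25697 probes by 28 arrays, whose background and normalization steps the sources used here do not give; BeadStudio is named per the submitters' processing notes. A second deposited table, with 112 columns of array identifiers that match no sample label, was not used. Groups come from sample titles.

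Intensities were background-corrected by normexp (offset 50), quantile normalized and log2 transformed. Of the probes, 23978 carry 1 symbol, 0 several and 1719 none; 23962 were looked up by gene identifier in RefSeq and 0 symbols changed. Per gene the brightest probe was kept, and tested if all arrays of some group detected it. Detection used 1362 olfactory, vomeronasal, trace amine and taste receptor probes; the taste prefix was narrowed after the values were seen, because it also caught Tasp1. This left 9651 genes tested and 6942 not. One limma 3.58.1 model (R 4.3.3) held the 9 group means, without covariates, with Benjamini-Hochberg adjustment over all genes tested. The organ pair contrasts were added after the levels were seen. The procedure was tested on simulated data.

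The members and lists were chosen with earlier results of these data known. Per-array values are given for genes called in the mean of the organs and, in each other comparison, for up to 8 called genes with the largest changes; of other lists, up to 4. The number of arrays limits the precision. Same-numbered arrays deviated together (every r over 0.1) for endoderm and ectoderm (0.325 to 0.370), ectoderm and mesoderm (0.264 to 0.402), lung and stomach (0.635 to 0.879), pancreas and intestine (0.560 to 0.667), liver and intestine (0.290 to 0.380), esophagus and liver (0.150 to 0.209) and liver and pancreas (0.107 to 0.472), but not for endoderm with any organ. For endoderm and mesoderm r was 0.08 to 0.20, and each array correlated best with its own number. That was not so for liver and pancreas. No label states that the numbers mark shared pools. Alternatives covered the background, scaling, filter, probe choice, array weights, blocks and leaving out each array. Promoter windows are from RefSeq (GRCm38.p6).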

Additional observations from a re-analysis of the deposited data

Results flagged for a closer look

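Pfkfb3 on pancreas 3 stood apart from the other pancreas arrays, at 7.73 against 6.20 on the nearest, a gap of 0.985 of the group's whole range. Chance marks about 1 in 20 such groups, and the pancreas arrays were searched for each of the 39 listed genes with a probe. Pancreas 3 is the array with the most deposited values below 0, and intestine 3, with the second most, read 7.59. The part of those values in the reading was not tested.

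For 10 genes the shift from E8.25 endoderm differed between organs by limma's F-test, given here as the highest minus the lowest organ on the log2 scale. The transporters spanned 1.09 for Slc2a1, 2.72 for Slc2a2 and 3.98 for Slc2a3; for Slc2a2 the lower end is an undetected probe. Glycolytic genes spanned 1.88 for Hk2, 1.05 for Pfkl, 1.18 for Aldoc, 1.60 for Eno3 and 1.89 for Pkm. Ldha spanned 1.18 and Idh3a 1.43.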

How the results depend on the processing

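The 70 called results of single genes were recomputed under 12 alternatives, 2 of them (without pancreas 3 and intestine 3, and the upper intensity class alone) chosen after seeing the data. All 809 values kept their direction and 801 stayed called; with 1 array left out, all 699 kept their direction and 688 stayed called. Liver against the mean of the other 5 organs gave 4 genes with the intensity class as a block, against 2. Leaving out 1 array gave 7 to 8 genes in the mean of the organs, 10 to 11 in liver and 5 to 7 in intestine. With the replicate number as a block, the genes differing among organs went from 10 to 9, losing Slc2a1 at 0.93, and no other call changed. Beyond the calls named with their genes above, Idh1 in pancreas was lost with array weights (0.96) and Ldha among organs without pancreas 2 (1.00). Scaling to the 75th percentile gave 2 higher and 11 lower genes in liver, against 3 and 7, and in pancreas 443 higher and 656 lower of all genes, against 527 and 490, with an all-gene median of -0.18 against -0.06.

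Counts over all genes rose without background correction: from 665 to 1299 in the mean of the organs, 1076 to 1808 in esophagus, 793 to 1413 in lung, 890 to 1519 in stomach, 1791 to 2826 in liver, 1017 to 1732 in pancreas, 822 to 1450 in intestine, 1299 to 2129 in liver against the other organs, 273 to 536 against ectoderm and 833 to 1468 against mesoderm. Receptor probes as negative controls gave 1242, 1746, 1357, 1470, 2761, 1677, 1422, 2071, 534 and 1422 in the same order. A normexp offset of 16 gave 1052 in the mean of the organs, 1216 in lung, 1259 in intestine, 444 against ectoderm and 1251 against mesoderm. Signal over background limits Slc2a2, Slc16a3, Pfkp, Hk1 and Pfkfb3, which lay near the detection limit in several groups.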
